A study of Mus musculus with 2 samples.

Results

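Elastin, 5 fibulins and 4 lysyl oxidases were followed in RNA from mitral valves, as 10 genes chosen by symbol (Eln, Fbln1, Fbln2, Fbln5, Efemp1, Efemp2, Lox, Loxl1, Loxl2 and Loxl3) among the 33640 genes of the deposited table. One group was heterozygous for the C1039G allele of Fbn1, which encodes the microfibril protein fibrillin-1, and is written Fbn1C1039G/+ in the labels. The other was wild type (WT). Mice of both groups were 5 months old, and tissue from 8 hearts, of males and females together, was pooled into 1 RNA library per genotype. C1039G is a missense change, and heterozygous mice are a model of Marfan syndrome, the human disease caused by FBN1 mutations. The comparison asks how transcript levels in the valve differ between the genotypes. With 1 library on each side there is no replicate and so neither a test nor an error, and every difference below is one between these 2 pools and not a shown effect of the genotype.

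Elastic fibres give tissue its recoil. Tropoelastin, the product of Eln, is deposited on fibrillin microfibrils and made insoluble by cross-links between its lysines, which lysyl oxidases start in a copper-dependent reaction. Fibulins are secreted glycoproteins that bring tropoelastin, microfibrils and the cross-linking enzymes together, and some also bind proteoglycans or basement membranes. In the mitral valve elastic fibres lie mostly on the atrial side of the leaflet, where they help the leaflet return to shape.

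Each of the 10 genes was measured in both pools, and none differed by as much as 2-fold. Of the 5 fibulin genes, 4 had less transcript in the Fbn1C1039G/+ pool, the widest gap being that of Fbln1, and Fbln2 had more. Of all genes tested 35.1% had less and 64.9% had more. Among lysyl oxidases Lox, Loxl2 and Loxl3 had more transcript in the Fbn1C1039G/+ pool and Loxl1 had less. Eln itself had nearly the same level in both. In pooled tissue, fewer cells that express a gene and less of its RNA per cell cannot be told apart. Values are TPM, which express each gene's transcripts per unit of length as a part of the library's total, and differences are in log2(TPM + 1), Fbn1C1039G/+ minus WT.

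The upstream sequences of the 4 fibulin genes that had less transcript in the Fbn1C1039G/+ pool are shown so that what these genes share before their start can be read beside their values. RefSeq windows on GRCm38.p6 (the mm10 assembly) were used for 5 of the 10 genes, all of them fibulins. Lox was left out of the search for windows, so the lack of a Lox window here is not a result. The 250 bases before the first listed start site are given 5' to 3' on the gene's strand. They are chr15:85205699-85205948 (plus strand) for Fbln1, chr12:101819120-101819369 (minus strand) for Fbln5, chr11:28852955-28853204 (plus strand) for Efemp1 and chr19:5473696-5473945 (plus strand) for Efemp2. Capitals mark the motifs searched on both strands, namely TATAAA for the TATA box, GGGCGG for the GC box, TGANTCA for the AP-1 element and GTCTAGAC for the SMAD palindrome. The matches overlap each other nowhere in these windows.
Fbln1: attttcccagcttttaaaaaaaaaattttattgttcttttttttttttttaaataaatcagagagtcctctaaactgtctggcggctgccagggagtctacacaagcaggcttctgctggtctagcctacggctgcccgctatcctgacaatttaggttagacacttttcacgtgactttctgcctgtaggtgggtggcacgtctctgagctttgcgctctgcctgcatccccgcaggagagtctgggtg
Fbln5: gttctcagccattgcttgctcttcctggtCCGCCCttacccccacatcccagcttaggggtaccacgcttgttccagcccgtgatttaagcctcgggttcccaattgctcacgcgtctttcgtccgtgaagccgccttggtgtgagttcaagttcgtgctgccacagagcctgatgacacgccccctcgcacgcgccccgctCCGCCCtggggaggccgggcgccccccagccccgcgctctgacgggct
Efemp1: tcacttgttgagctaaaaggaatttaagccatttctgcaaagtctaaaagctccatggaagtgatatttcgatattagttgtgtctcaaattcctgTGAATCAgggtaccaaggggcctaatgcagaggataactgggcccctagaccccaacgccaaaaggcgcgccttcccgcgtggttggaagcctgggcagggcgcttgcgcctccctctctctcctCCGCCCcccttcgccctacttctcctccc
Efemp2: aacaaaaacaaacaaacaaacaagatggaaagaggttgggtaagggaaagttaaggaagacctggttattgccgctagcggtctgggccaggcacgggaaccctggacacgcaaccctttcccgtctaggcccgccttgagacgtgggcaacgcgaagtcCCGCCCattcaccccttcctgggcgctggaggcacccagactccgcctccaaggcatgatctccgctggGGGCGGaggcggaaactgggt
The GC box was found in the windows of Fbln5, Efemp1 and Efemp2, and in 32.7% of all 32851 windows of this length. The Efemp1 window also held 1 AP-1 element, which 6.75% of all windows hold. The Fbln1 window held none of the 4 motifs. These counts depend on the start site, since the window of a second Fbln1 start held 1 GC box with 62.4% G and C, that of a second Fbln5 start held no GC box with 49.6%, and those of 2 further Efemp2 starts held 5 each. None of the 4 printed windows held the TATA box (12.4% of all windows) or the SMAD palindrome (0.167% of all windows). G and C made up 46.4% of the Fbln1 window and between 53.6% and 65.2% of the others, against a median of 52.4% over all windows. The Fbln2 window, not printed since it lies inside an annotated exon, held 1 GC box and 58.8% G and C. A motif match is a description of letters, and none of these windows was tested for activity here.

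Eln had 66.4 TPM in the Fbn1C1039G/+ pool and 60.5 TPM in the WT pool, a difference of 0.13. Over the 17004 genes tested, those whose mean over both pools reached 1 TPM, the median difference was 0.14, so that elastin transcript differed by about as much as the middle gene of the table. After centring on the median of genes whose mean reached 10 TPM, the Eln difference was 0.022. In mm10, Eln spans 134702593 to 134747323 on the minus strand of chromosome 5, with 37 exons in its longest coding transcript in the GENCODE annotation. Fbn1, whose protein forms the microfibrils that carry elastin, had 126 TPM in the Fbn1C1039G/+ pool and 108 TPM in the WT pool. The ratio of Eln to Fbn1 transcript was accordingly 0.529 in the Fbn1C1039G/+ pool and 0.560 in the WT pool.

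**Figure D1:**
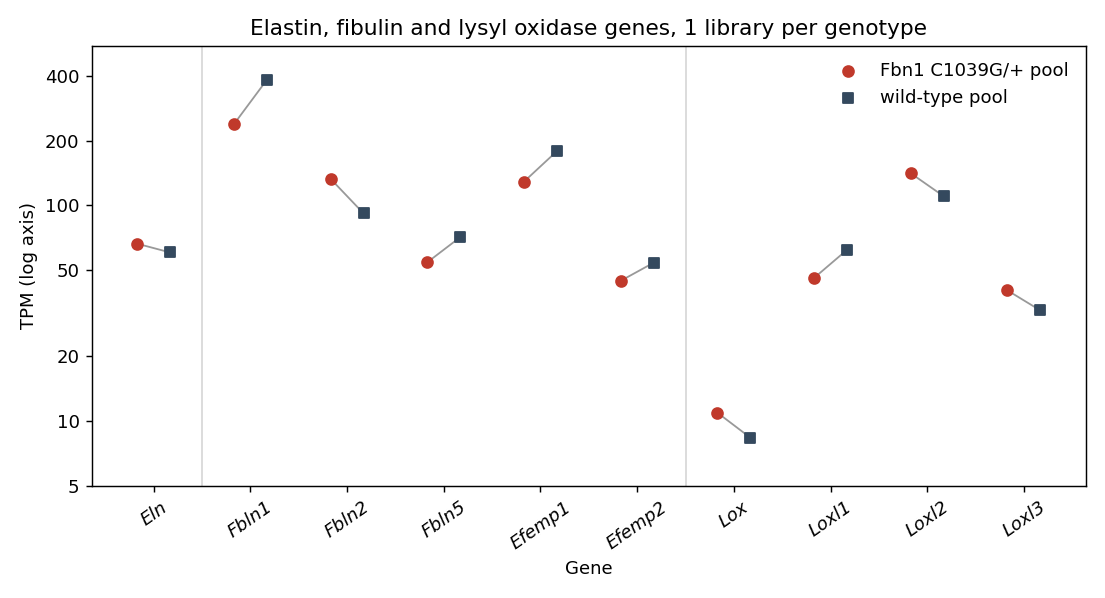
TPM of each of the 10 genes on a log axis, with the Fbn1C1039G/+ pool as a circle and the WT pool as a square, joined by a line; each point is 1 library and has no error. Fbln1 has the highest value in both pools and Lox the lowest, and lines slope up to the WT pool for Fbln1, Fbln5, Efemp1, Efemp2 and Loxl1.

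Fbln1 was the most abundant of the 10 genes in both pools. It encodes fibulin-1, which binds fibronectin and the elastic fibre core and acts as a cofactor of the versican-cleaving protease ADAMTS1. Fbln1 had 239 TPM in the Fbn1C1039G/+ pool and 383 TPM in the WT pool, 0.623 times the WT level (difference -0.68). In order of abundance it stood 465th in the Fbn1C1039G/+ pool and 259th in the WT pool among all genes. Fbln2 encodes fibulin-2, a binding partner of versican and nidogen that is found in the endocardial cushions from which valves form. Fbln2 had 133 TPM in the Fbn1C1039G/+ pool and 91.8 TPM in the WT pool, 1.45 times the WT level (difference 0.53). The gene pair thus differed in opposite directions. Fbln1 was 1.80 times as abundant as Fbln2 in the Fbn1C1039G/+ pool and 4.17 times in the WT pool. Since a ratio within a library does not depend on how the whole library is scaled, this gap of 1.21 (log2 of the ratio) is unaffected by a common shift of all genes. Under quantile normalization, which is not a common shift, the gap was 1.11. It describes these 2 pools, and does not show which of the pair differed. Fbln1 lies on chromosome 15 at 85205949 to 85286535 and Fbln2 on chromosome 6 at 91212455 to 91272540, both on the plus strand.

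The other fibulins are the short ones. Fbln5 and Efemp2 encode fibulin-5 and fibulin-4, both needed for elastic fibre assembly in mice, and Efemp1 encodes fibulin-3, whose loss in mice weakens fascia and leads to hernias. Fbln5 had 54.5 TPM in the Fbn1C1039G/+ pool and 71.3 TPM in the WT pool (difference -0.38). Efemp2 had 44.7 TPM in the Fbn1C1039G/+ pool and 54.2 TPM in the WT pool (difference -0.27). Efemp1, the most abundant of them, had 129 TPM in the Fbn1C1039G/+ pool and 179 TPM in the WT pool (difference -0.47). Each was thus lower in the Fbn1C1039G/+ pool, and by similar amounts, so the ratio of Efemp1 to Fbln5 was 2.37 in the Fbn1C1039G/+ pool and 2.51 in the WT pool. Relative to elastin there was less of the assembly fibulins. The ratio of Fbln5 to Eln transcript was 0.821 in the Fbn1C1039G/+ pool and 1.18 in the WT pool, and that of Efemp2 to Eln was 0.673 in the Fbn1C1039G/+ pool and 0.896 in the WT pool. These genes lie apart in the genome, Fbln5 on chromosome 12 (101746565 to 101819055, minus strand), Efemp1 on chromosome 11 (28853204 to 28926743, plus strand) and Efemp2 on chromosome 19 (5473954 to 5482517, plus strand). At its end Efemp2 shares 173 bases with Mus81 on the other strand. Mus81 had 23.8 TPM in the Fbn1C1039G/+ pool and 22.03 TPM in the WT pool, and whether strand was used in counting is not given in the sources used here.

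Added up, the 5 fibulin genes had 599.5 TPM in the Fbn1C1039G/+ pool and 779 TPM in the WT pool, a difference of -0.38 that stayed between -0.49 and -0.38 over the scalings tried. Fbln1 made up 39.8% of this sum in the Fbn1C1039G/+ pool and 49.2% in the WT pool. Fbln2 made up 22.1% in the Fbn1C1039G/+ pool and 11.8% in the WT pool, while the shares of Fbln5, Efemp1 and Efemp2 each differed by less than 1.5 percentage points. The 3 short fibulins had 228 TPM in the Fbn1C1039G/+ pool and 304 TPM in the WT pool.

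Of the lysyl oxidases, Lox and Loxl1 are the members most closely tied to elastin. Lox encodes the founding enzyme, which acts on collagens and elastin, and Loxl1 an enzyme that binds fibulin-5 and whose loss in mice impairs elastic fibre renewal. Lox had 10.9 TPM in the Fbn1C1039G/+ pool and 8.36 TPM in the WT pool (difference 0.35), the lowest level of the 10 genes in both. Loxl1 had 46.1 TPM in the Fbn1C1039G/+ pool and 62.2 TPM in the WT pool (difference -0.42), and was the 1 lysyl oxidase of the 4 that was lower. Its ratio to Fbln5, whose product it binds, was 0.846 in the Fbn1C1039G/+ pool and 0.873 in the WT pool, and its ratio to Eln was 0.694 in the Fbn1C1039G/+ pool and 1.03 in the WT pool. Lox lies on chromosome 18 (52516067 to 52529867, minus strand) and Loxl1 on chromosome 9 (58287738 to 58313186, minus strand).

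Loxl2 and Loxl3 carry scavenger receptor domains that Lox and Loxl1 lack, and LOXL2 is known for cross-linking collagen IV of basement membranes. Loxl2 was the most abundant lysyl oxidase, with 141 TPM in the Fbn1C1039G/+ pool and 110.3 TPM in the WT pool (difference 0.35). Loxl3 had 40.3 TPM in the Fbn1C1039G/+ pool and 32.6 TPM in the WT pool (difference 0.30). Lox, Loxl2 and Loxl3 kept similar proportions, with 12.9 Loxl2 transcripts per Lox transcript in the Fbn1C1039G/+ pool and 13.2 in the WT pool. Loxl1 departed from them, since the ratio of Loxl2 to Loxl1 was 3.06 in the Fbn1C1039G/+ pool and 1.77 in the WT pool. Loxl2 lies on chromosome 14 (69609068 to 69695834, plus strand) and Loxl3 on chromosome 6 (83034173 to 83052562, plus strand). The end of Loxl3 shares 1297 bases with Htra2 on the other strand, which had 19.9 TPM in the Fbn1C1039G/+ pool and 20.6 TPM in the WT pool. Other opposite-strand genes, with no TPM listed, overlap Loxl2 (Gm27177, 74219 bases, and Gm37513, 2268 bases), Lox (AC161119.1, 1207 bases) and Eln (Gm30003, 282 bases). These lengths are of gene spans with introns included.

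The 4 lysyl oxidases together had 238 TPM in the Fbn1C1039G/+ pool and 213 TPM in the WT pool. This difference of 0.16 was close to the median of all genes tested (0.14), and it was 0.047 after centring. Their make-up differed more than their sum. Loxl1 made up 19.3% of it in the Fbn1C1039G/+ pool and 29.1% in the WT pool, and Loxl2 59.2% in the Fbn1C1039G/+ pool and 51.7% in the WT pool.

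**Figure D2:**
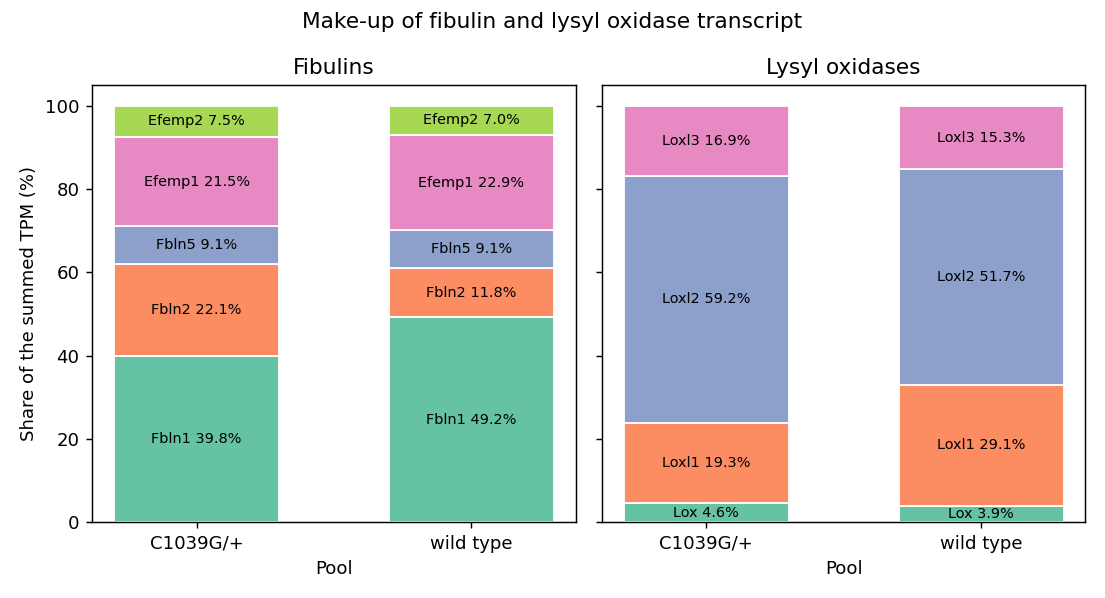
Share of each gene in the summed TPM of the 5 fibulins (left) and of the 4 lysyl oxidases (right), with the Fbn1C1039G/+ pool left of the WT pool in each panel. Fbln2 takes 22.1% of the fibulin sum in the Fbn1C1039G/+ pool and 11.8% in the WT pool, and Loxl1 takes 19.3% of the lysyl oxidase sum in the Fbn1C1039G/+ pool and 29.1% in the WT pool.

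Counts past a fold and the typical size of the differences were set against all genes tested. At least 2-fold more transcript in the Fbn1C1039G/+ pool was seen for 0 of the 10 genes and for 4.81% of all genes tested, and at least 2-fold less for 0 of the 10 genes and for 1.72% of all genes tested. At 1.5-fold, Fbln1 was the 1 gene of the 10 that was lower, against 4.73% of all genes, and 0 of the 10 were higher, against 15.4% of all genes. More TPM in the Fbn1C1039G/+ pool was listed for 5 of the 10 genes, against 64.9% of all genes tested, and less for the other 5, against 35.1%. Their median difference was -0.070, and the median size of the difference, whatever its sign, was 0.37 for the 10 genes and 0.28 for all genes tested. Differences also depend on abundance. Fbln1 belongs with 472 genes of 200 to 1000 TPM, of which the central 95% lay between -0.70 and 0.82, and at -0.68 it was just inside the lower limit. Eln, Fbln2, Fbln5, Efemp1, Loxl1 and Loxl2 belong with 2671 genes of 50 to 200 TPM, with limits of -0.52 and 0.80, and Efemp1 came nearest to the lower of these. None of the 10 genes lay outside the central 95% of its abundance band. In 7 of the 10 the difference was outside the middle 50% of genes, the exceptions being Eln, Lox and Loxl3.

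**Figure D3:**
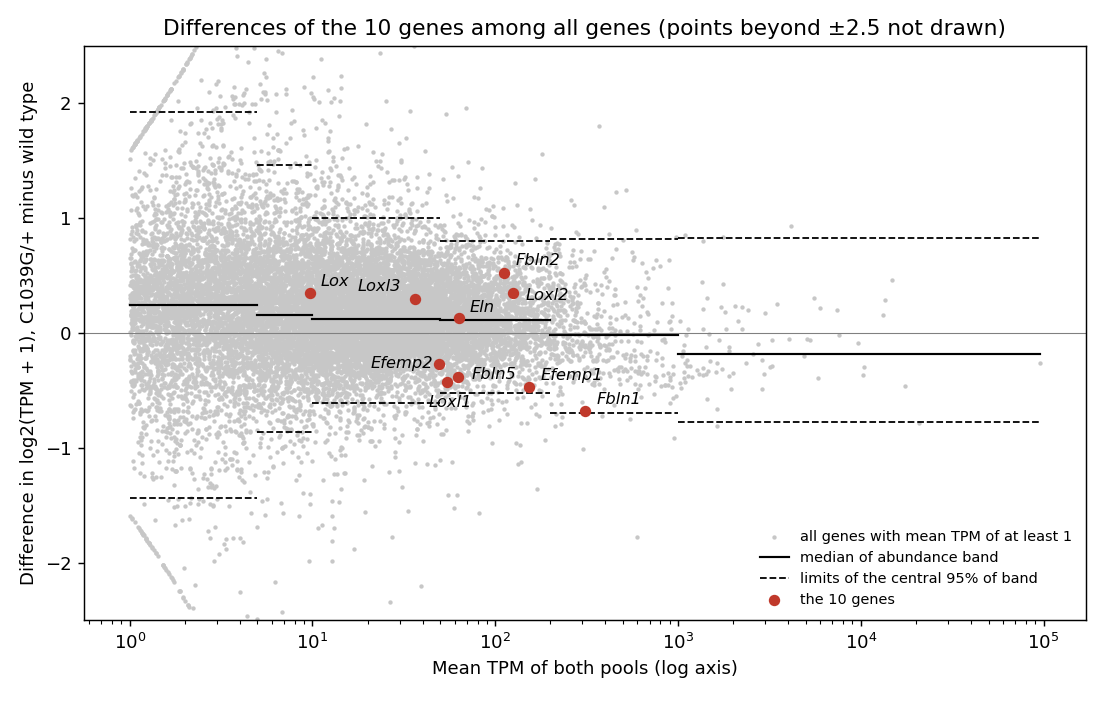
Difference in log2(TPM + 1), Fbn1C1039G/+ minus WT, against the mean TPM of both pools on a log axis. Grey points are the 17004 genes tested, except those beyond the limits of the vertical axis, which are not drawn. Solid lines are the median and dashed lines the limits of the central 95% of each abundance band, and red points are the 10 genes. The 10 genes lie between -0.68 (Fbln1) and 0.53 (Fbln2), inside the dashed limits.

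The order of the levels was alike in both pools at its ends and differed in the middle. Fbln1 came first and Efemp2, Loxl3 and Lox, in this order, came last in both. In the Fbn1C1039G/+ pool Loxl2, Fbln2 and Efemp1 followed Fbln1 and lay between 129 and 141 TPM, whereas in the WT pool Efemp1 was second at 179 TPM, before Loxl2 and Fbln2. Without replicates, neighbours in this order cannot be said to differ.

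The closest relatives of these genes had low to moderate levels. Loxl4, the remaining lysyl oxidase, had 14.2 TPM in the Fbn1C1039G/+ pool and 17.8 TPM in the WT pool (difference -0.31). Fbln7, which encodes fibulin-7, had 8.54 TPM in the Fbn1C1039G/+ pool and 9.81 TPM in the WT pool. The hemicentin gene Hmcn1 had 38.8 TPM in the Fbn1C1039G/+ pool and 31.2 TPM in the WT pool, and Hmcn2 had 1.03 TPM in the Fbn1C1039G/+ pool and 1.23 TPM in the WT pool. None of the 4 differed by as much as 2-fold.

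The next list held microfibril and elastic fibre partners of elastin. Of the 20 listed, 18 reached this mean of 1 TPM, with 10 higher (64.9% of all genes tested) and 8 lower in the Fbn1C1039G/+ pool, a median difference of 0.071 and none at 2-fold. Mfap4, a microfibril-associated glycoprotein gene, had 661 TPM in the Fbn1C1039G/+ pool and 1248 TPM in the WT pool (difference -0.92). Mfap2, whose product MAGP-1 binds fibrillin and tropoelastin, had 35.2 TPM in the Fbn1C1039G/+ pool and 65.6 TPM in the WT pool (difference -0.88). Both gaps were wider than that of any fibulin or lysyl oxidase above. The abundant Ltbp4, whose product guides fibulin-5 and elastin onto microfibrils, had 398 TPM in the Fbn1C1039G/+ pool and 408 TPM in the WT pool. Mfap5, which encodes the MAGP-1 relative MAGP-2, was not lower, with 307 TPM in the Fbn1C1039G/+ pool and 254 TPM in the WT pool.

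A broader list took in genes of lysyl oxidase activation, procollagen processing and copper handling, not all of which act on lysyl oxidases. It had a median difference of 0.13, beside 0.14 for all genes tested. Of its 16 measured members 13 were higher (64.9% of all genes), 3 lower and none at 2-fold. Postn, whose product periostin aids the activation of lysyl oxidase by BMP1, had 2263 TPM in the Fbn1C1039G/+ pool and 1269 TPM in the WT pool (difference 0.83). Pcolce2, an enhancer of procollagen C-proteinases, had 67.1 TPM in the Fbn1C1039G/+ pool and 35.3 TPM in the WT pool (difference 0.91). Bmp1, which cleaves the lysyl oxidase precursor, had 37.4 TPM in the Fbn1C1039G/+ pool and 30.0 TPM in the WT pool. Fmod, a collagen-binding proteoglycan that directs lysyl oxidase to collagen, had 533 TPM in the Fbn1C1039G/+ pool and 629 TPM in the WT pool. The copper transporter gene Atp7a, which loads lysyl oxidases in the secretory pathway, had 32.3 TPM in the Fbn1C1039G/+ pool and 30.0 TPM in the WT pool.

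Collagens, the other substrate of lysyl oxidases, had a median difference of 0.25, with 8 of 10 measured members higher, 2 lower and none at 2-fold, beside a median of 0.14 and 64.9% higher for all genes tested. Col3a1 had 995 TPM in the Fbn1C1039G/+ pool and 760.2 TPM in the WT pool, and Col1a2 had 476 TPM in the Fbn1C1039G/+ pool and 401 TPM in the WT pool. Col5a2, which encodes a chain that helps start fibrils, had the widest gap, with 133 TPM in the Fbn1C1039G/+ pool and 83.5 TPM in the WT pool (difference 0.66). Col11a2 had 7.57 TPM in the Fbn1C1039G/+ pool and 11.2 TPM in the WT pool.

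Matrix and lysosomal proteases, several of which cut elastin, had a median difference of -0.033, with 6 of 13 measured members higher, 7 lower (35.1% of all genes) and none at 2-fold. Mmp2, a gelatinase, had 374 TPM in the Fbn1C1039G/+ pool and 338 TPM in the WT pool, and the lysosomal protease gene Ctsd had 354 TPM in the Fbn1C1039G/+ pool and 363 TPM in the WT pool. The mast cell chymase gene Cma1 had 12.7 TPM in the Fbn1C1039G/+ pool and 7.88 TPM in the WT pool, and the collagenase gene Mmp13 had 4.88 TPM in the Fbn1C1039G/+ pool and 8.25 TPM in the WT pool. The neutrophil elastase gene Elane was listed at 0 in both pools.

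Among inhibitors of such proteases 2 of 11 were at least 2-fold higher, against 4.81% of all genes tested, and 1 was at least 2-fold lower, against 1.72%, and their median difference was 0.036. Timp1, an inhibitor of metalloproteinases, had 269.9 TPM in the Fbn1C1039G/+ pool and 90.9 TPM in the WT pool (difference 1.56). Serpina3n, an inhibitor of serine proteases, had 359 TPM in the Fbn1C1039G/+ pool and 160.1 TPM in the WT pool (difference 1.16). The lower one was Serpina1a, one of several near-identical alpha-1 antitrypsin genes between which reads may be divided by an estimate, with 2.05 TPM in the Fbn1C1039G/+ pool and 6.05 TPM in the WT pool. The most abundant inhibitors differed less, with Timp3 at 2270.2 TPM in the Fbn1C1039G/+ pool and 2214 TPM in the WT pool, and Cst3 at 1769 TPM in the Fbn1C1039G/+ pool and 2246 TPM in the WT pool.

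Receptors and binding partners of elastin and fibulins had a median difference of 0.19, with 13 of 18 measured members higher, 5 lower and none at 2-fold, near the 64.9% of all genes tested that were higher. Vcan encodes versican, a proteoglycan bound by fibulin-1 and fibulin-2, and had 688 TPM in the Fbn1C1039G/+ pool and 443 TPM in the WT pool (difference 0.63). Itga5, a chain of the fibronectin receptor, had 45.4 TPM in the Fbn1C1039G/+ pool and 28.7 TPM in the WT pool (difference 0.64). The abundant proteoglycan genes Dcn (9304 TPM in the Fbn1C1039G/+ pool and 11409 TPM in the WT pool) and Bgn (5161 TPM in the Fbn1C1039G/+ pool and 5396 TPM in the WT pool) were close to or below the WT level.

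**Figure D4:**
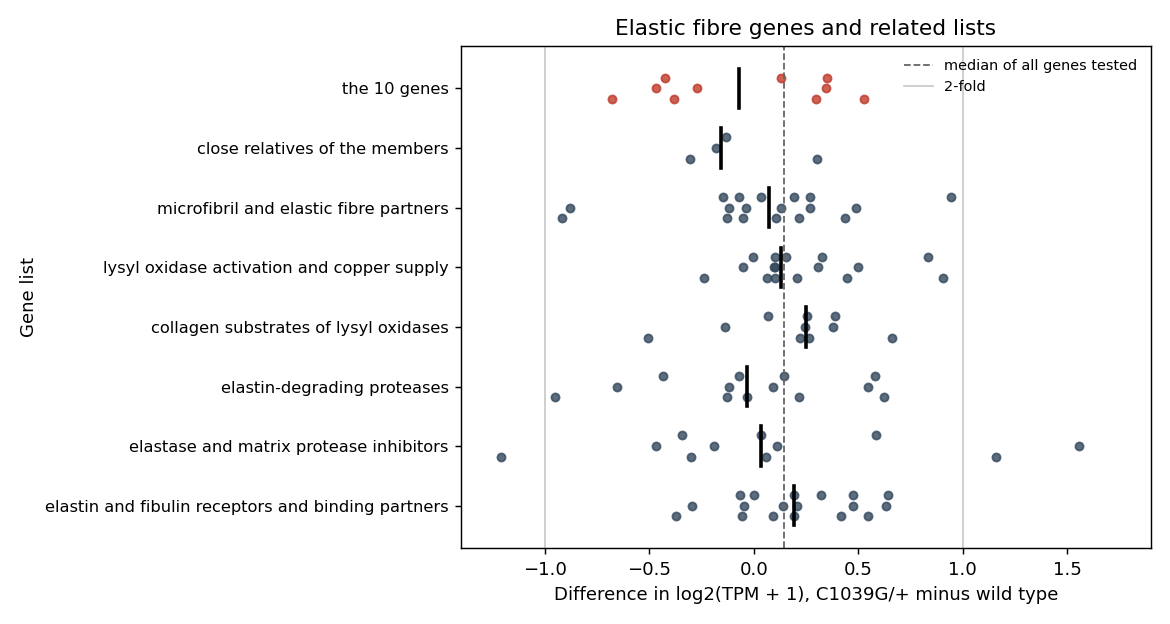
Difference in log2(TPM + 1), Fbn1C1039G/+ minus WT, for the 10 genes (red) and for measured members of related lists (dark), each point 1 gene; black bars are list medians, the dashed line the median of all genes tested and the light lines 2-fold. The 10 genes fall on both sides of 0 with a median of -0.070, and points beyond 2-fold appear among the protease inhibitors.

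Markers of valve interstitial cells, which make this matrix, were present in both pools. All 11 were above 0, and they summed to 23049 TPM in the Fbn1C1039G/+ pool and 23817 TPM in the WT pool, with 6 higher and 5 lower. Their median difference was 0.084, and single markers lay between -0.55 and 0.83, so the near-equal sums hide gaps in both directions. Of all genes tested 64.9% were higher and 35.1% lower, which is the background for each count of markers here. Vascular smooth muscle, another source of elastin, had marker sums of 206 TPM in the Fbn1C1039G/+ pool and 198 TPM in the WT pool, with 3 of 7 measured markers higher and 4 lower, a median difference of -0.16 and the defining gene Myh11 at 0.742 TPM in the Fbn1C1039G/+ pool and 1.07 TPM in the WT pool. Several other cell types differed more. Neutrophil markers summed to 104 TPM in the Fbn1C1039G/+ pool and 17.5 TPM in the WT pool. Of 6 measured members 4 were higher (64.9% of all genes tested) and 2 lower. The 4 higher ones were each at least 2-fold higher, as were 4.81% of all genes tested, and Ly6g was listed at 0 in both pools. All 10 monocyte and macrophage markers were higher, at 1936 TPM in the Fbn1C1039G/+ pool and 1566 TPM in the WT pool, with Plac8 listed at 0 in the WT pool. Lower in the Fbn1C1039G/+ pool, as were 35.1% of all genes tested, were 5 of 7 T cell markers (50.2 TPM in the Fbn1C1039G/+ pool and 77.8 TPM in the WT pool) and 9 of 10 cardiomyocyte markers (1933 TPM in the Fbn1C1039G/+ pool and 2603 TPM in the WT pool). Red blood cell markers were lower in 5 of 5 measured members (687 TPM in the Fbn1C1039G/+ pool and 6803 TPM in the WT pool), and lymphatic endothelial markers in 6 of 7 (213 TPM in the Fbn1C1039G/+ pool and 373 TPM in the WT pool). Endothelial markers summed to 827 TPM in the Fbn1C1039G/+ pool and 845 TPM in the WT pool, with 6 of 8 lower and a median difference of -0.14. The Y-linked genes Ddx3y, Kdm5d, Eif2s3y and Uty were each higher, Uty having 64.5 TPM in the Fbn1C1039G/+ pool and 44.8 TPM in the WT pool. The part of these differences in the values of the 10 genes was not tested.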

How the data were processed

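RNA from pooled mitral valves was amplified with the Ovation RNAseq system v2, converted to sequencing libraries using Nextera XT reagents and read on an Illumina HiSeq instrument, per the labels' protocols. Trimmomatic, HISAT2, kallisto and the mm10 genome are named in the submitters' processing notes, whereas versions and roles, strandedness and the step from transcripts to genes were not given in the sources used here. Values were deposited by the authors as TPM per gene symbol, per the file header, for 33640 genes, summing to 999945 in the Fbn1C1039G/+ and 999964 in the WT library. TPM keeps no record of depth, so the depth is unknown and no interval or detection floor is given. Amplified reads without molecular identifiers are not independent molecules, and near-identical genes can share reads.

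Columns were matched to libraries by genotype. The difference was log2(TPM + 1), Fbn1C1039G/+ minus WT, with a pseudocount of 1, which understates differences of low genes. Genes tested were the 17004 whose mean over both libraries reached 1 TPM, and each of the 10 genes passed this filter. The difference had to reach 1 in size to count as 2-fold and 0.58 to count as 1.5-fold. With 1 library per genotype no test was run. The calculation was tested on simulated data with planted changes well past 2-fold and little noise. That checks the arithmetic of the calls only, and not the smaller differences reported here. Coordinates, exon numbers and overlaps came from GENCODE M21, and upstream windows from RefSeq on GRCm38.p6, the same assembly as mm10. Python 3.11.15, numpy 2.4.6 and pandas 2.3.3 were used.

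The genes and lists were chosen with earlier results of these data known. Named genes were the 10, their 4 relatives, Fbn1 and, from each other list, the 2 members of highest mean and the 2 of widest difference, these only where the mean reached 5 TPM. Mfap5, Bmp1, Atp7a, Elane and Serpina1a, and the marker, Y-linked and overlapping genes, were chosen after their values were seen. Alternatives were pseudocounts of 0.1 and 5, a filter at 0 or 5 TPM in place of 1, centring on the median of genes whose mean reached 10 TPM, quantile normalization, and rescaling without predicted, Rik, ribosomal protein, globin and mitochondrial genes.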

Additional observations from a re-analysis of the deposited data

How the results depend on the processing

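Each of the 10 genes kept the sign of its difference under centring, quantile normalization and rescaling without abundant and predicted genes. The other alternatives, pseudocounts and filters, cannot change the sign of a gene's difference. Over all 7 alternatives Eln ran from 0.018 to 0.13, Fbln1 from -0.79 to -0.67, Fbln2 from 0.39 to 0.53 and Loxl1 from -0.54 to -0.40. The 10 genes held no 2-fold difference under any of them. Their median was -0.18 after centring, which takes 0.11 from every gene, and -0.19 under quantile normalization. Counts over all genes moved more. In the main setting 818 genes were higher and 293 lower at 2-fold, and 2613 and 805 at 1.5-fold. Filters and leaving genes out also change how many genes are tested, so the counts below are not shares of one set. At 2-fold, 1264 genes were higher and 464 lower with a pseudocount of 0.1, 209 and 87 with a pseudocount of 5, 360 and 103 under a filter at 5 TPM, and 540 and 462 under quantile normalization, and 499 were higher without abundant and predicted genes. At 1.5-fold, 1172 were higher and 358 lower with a pseudocount of 5, 1530 and 399 under the filter at 5 TPM, and 1503 and 1409 under quantile normalization, and 1230 were lower with no filter. After centring, list medians were -0.27 for close relatives, -0.040 for microfibril partners, 0.019 for lysyl oxidase activation, 0.14 for collagens, -0.14 for proteases, -0.075 for inhibitors and 0.082 for receptors and partners. Under quantile normalization they were -0.34 for close relatives, -0.017 for microfibril partners, 0.018 for lysyl oxidase activation and 0.17 for collagens. They were -0.039 for proteases, -0.14 for inhibitors and 0.065 for receptors and partners. A single microfibril partner became 2-fold higher (1) with a pseudocount of 0.1 or without abundant genes, and 1 became 2-fold lower after centring or quantile normalization. Among proteases 1 became 2-fold higher with no filter or without abundant genes, and 1 became 2-fold lower with a pseudocount of 0.1, after centring, under quantile normalization or without abundant genes. Among inhibitors 0 were 2-fold lower with a pseudocount of 5 or the filter at 5 TPM. The causes were not tested. No paired analysis was possible because each genotype has 1 library, so no library could be left out either.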
